A study of Mus musculus with 10 samples.

Results

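The 34 genes described here encode subunits of the mitochondrial respiratory chain: 17 of complex I, 4 of complex II, 6 of complex III, 6 of complex IV and the mobile carrier cytochrome c. A gene was represented by the probe set that carried its symbol alone and had the highest mean over the arrays. Such a probe set was found for 33 of the 34, all of them among the 12670 genes tested. Cox7c, a small complex IV subunit, was not measured, because its 3 probe sets name Gm12338 together with Cox7c. Ndufa4 was placed in complex I by its name, although the protein is known to sit in complex IV, so medians for both placements are given. Scores and standard deviations per complex keep it in complex I.

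Primary mediastinal T cell lymphomas were taken from 10 NPM-ALK transgenic mice on a C57BL/6 background, 5 with intact WASP (labelled WT) and 5 lacking it (labelled WASP -/-), with 1 array of total RNA per mouse. NPM-ALK is the fusion kinase of anaplastic large cell lymphoma and was carried by both groups, no mouse was treated, and tumours arose by 4 to 5 months of age. WASP, the Wiskott-Aldrich syndrome protein, activates actin branching in blood cells; the series design names knockout males as well as females without giving the sex of a mouse, and the promoter that drives the transgene is not given in the sources used here. Levels are log2 intensities, differences are WASP-deficient minus WASP-intact on that scale, and levels of different probe sets are not set against each other.

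The respiratory chain lies in the inner mitochondrial membrane. Complex I takes electrons from NADH and complex II takes them from succinate, complex III passes them from ubiquinol to cytochrome c, and complex IV hands them to oxygen. Complexes I, III and IV pump protons while they do so, and ATP synthase uses the proton gradient. Nearly all subunits are encoded in the nucleus, and transcription factors such as NRF1, the ETS factor GABP and YY1 are known to act on many of their promoters. Growing T cells use the chain for ATP and also to regenerate the NAD+ that nucleotide and aspartate synthesis require.

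Promoters of 25 of the 34 genes were found in the RefSeq table of the GRCm38.p6 build, each a window of 300 bases with 250 before and 50 after the transcription start. Both strands were searched for 4 motifs. The NRF1 core GCGCATGC, which reads GCATGCGC on the other strand, was present in 4 of the 25 (16%), against 5.81% of the 10095 tested genes with a promoter and 3.05% of all 27025 genes with one. Those 4 are spread over complexes I, II and III and cytochrome c, and the stretches around the match are shown because they put the same letters at different distances from the start of genes that serve different steps of the chain. Each stretch is written 5′ to 3′ on the strand of its gene, with the NRF1 core in capitals.
Ndufa8, complex I, chr2:36049313-36049372, minus strand: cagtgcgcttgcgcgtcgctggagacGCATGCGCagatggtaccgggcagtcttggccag
Sdhb, complex II, chr4:140961191-140961250, plus strand: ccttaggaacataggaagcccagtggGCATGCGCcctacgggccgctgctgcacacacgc
Uqcrc1, complex III, chr9:108936668-108936695, plus strand: actccgctctGCGCATGCgcagcgcggc
Cycs, cytochrome c, chr6:50566596-50566655, minus strand: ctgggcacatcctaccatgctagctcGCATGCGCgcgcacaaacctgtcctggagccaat
Counted from the transcription start, the match begins at -8 in Ndufa8, at -54 in Sdhb, at -60 in Cycs and at 30 in Uqcrc1. In Uqcrc1 the core continues into its own reverse complement, so that the strands overlap there.

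The ETS core CCGGAAG, or CTTCCGG, was found in Cox6b1, Ndufs3, Sdhb and Sdhd, 16% of the 25 against 19.1% of tested genes with a promoter. The YY1 core AAGATGGC, or GCCATCTT, was found in Ndufa9, Ndufb8 and Ndufs4, 12% against 5.03%. The TATA box letters TATAAA were in 0 of the 25 promoters, against 8.77% of tested genes and 15.7% of all genes. A match is a description of letters in these windows and was not tied to binding in these lymphomas.

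Some T cell genes were high on all arrays, and others were high on only some of them. Cd3e was at 12.06 to 12.59, Thy1 at 11.86 to 12.31 and Ptprc, the pan-leukocyte CD45, at 11.77 to 12.06 on all arrays. Cd3d and Cd3g, which like Cd3e encode CD3 chains, were lower on the arrays with high Cd2 described next, Cd3d at 5.26 to 6.47 there and 8.96 to 10.08 on the others, and Cd3g at 6.29 to 10.24 and 11.45 to 12.23. Of the 14 T cell genes listed 10 were tested. Was itself, the disrupted gene, was at 9.11 to 9.34 with WASP and 7.92 to 8.20 without, the 1 gene past an adjusted p of 0.05 in limma (difference -1.14, SE 0.08, n = 5 per group). The T cell surface gene Cd2 divided the arrays otherwise. It was at 11.18, 11.30 and 11.52 on WASP-intact 4, WASP-intact 5 and WASP-deficient 1, here called Cd2-high, and at 6.10 to 6.90 on the other 7. Xist, a transcript of the inactive X chromosome, was high on 4 WASP-intact arrays (11.52 to 11.90) and low on WASP-intact 3 (4.40) and the WASP-deficient arrays (4.50 to 5.58). Kdm5d, on the Y chromosome, ran the other way, at 8.20 to 9.19 on WASP-intact 3 and all 5 WASP-deficient arrays and 4.61 to 5.51 on the rest, so that genotype and a sex-linked difference cannot be told apart for most of the comparison. WASP-deficient 3 had a lower median level over the tested genes (8.44) than the other 9 arrays (8.60 to 8.67).

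Respiratory chain genes varied less between these tumours than the median gene. The standard deviation over the 10 arrays had a median of 0.18 over the 33 genes and of 0.20 over all tested genes. Within a gene, the distance from the lowest to the highest array ran from 0.25 to 0.86. Ndufa4 spanned the most, followed by Uqcrb, Ndufa1 and Sdhd. Cycs, which encodes cytochrome c, Ndufv2, an iron-sulfur protein of complex I, and Ndufa10 spanned the least, at 0.25, 0.25 and 0.27. Complex IV genes had a median standard deviation of 0.12, against 0.19 in complex I, 0.17 in complex II and 0.18 in complex III.

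Many of the extremes sat on 3 of the WASP-deficient tumours. WASP-deficient 3 was the lowest array for 16 of the 33 genes and WASP-deficient 5 for 9, while WASP-deficient 4 was the highest for 17. WASP-intact 5 was the lowest for 6 and WASP-deficient 1 the highest for 5. Of all tested genes, 27% were lowest on WASP-deficient 3, 8.15% on WASP-deficient 5 and 7.88% on WASP-intact 5, and 17.2% were highest on WASP-deficient 4 and 9.99% on WASP-deficient 1. WASP-deficient 5 had an ordinary median level over all genes (8.67), whereas that of WASP-deficient 3 was low. The part of the array-wide level in these counts was not tested.

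A score per complex, the mean of its genes after each was centred on its own 10-array mean, shows these tumours one by one. For complex I the WASP-intact arrays scored 0.08, 0.05, -0.02, 0.02 and 0.00 in the order of their numbers, and the WASP-deficient arrays 0.09, 0.04, -0.26, 0.16 and -0.16. The WASP-intact scores lay inside the span of the WASP-deficient ones. For complex II the scores were -0.00, 0.11, 0.03, -0.09 and -0.04 with WASP and 0.03, 0.20, -0.24, 0.17 and -0.17 without. For complex III they were 0.03, 0.06, 0.03, 0.02 and 0.03 with WASP and 0.08, 0.01, -0.19, 0.16 and -0.23 without. In these 3 complexes the groups overlapped fully and WASP-deficient 3 and 5 were at the bottom. Complex IV was arranged differently, with 0.12, 0.07, 0.01, -0.12 and -0.15 on the WASP-intact arrays and -0.04, 0.06, -0.04, 0.20 and -0.11 on the WASP-deficient ones. Here the Cd2-high arrays WASP-intact 4 and 5 were the lowest of all. This contrast between complexes holds for the genes scored here. The 18 other complex I subunits described below scored -0.12 and -0.08 on WASP-intact 4 and 5. On WASP-deficient 3 and 5 they scored -0.15 and -0.09.

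**Figure D1:**
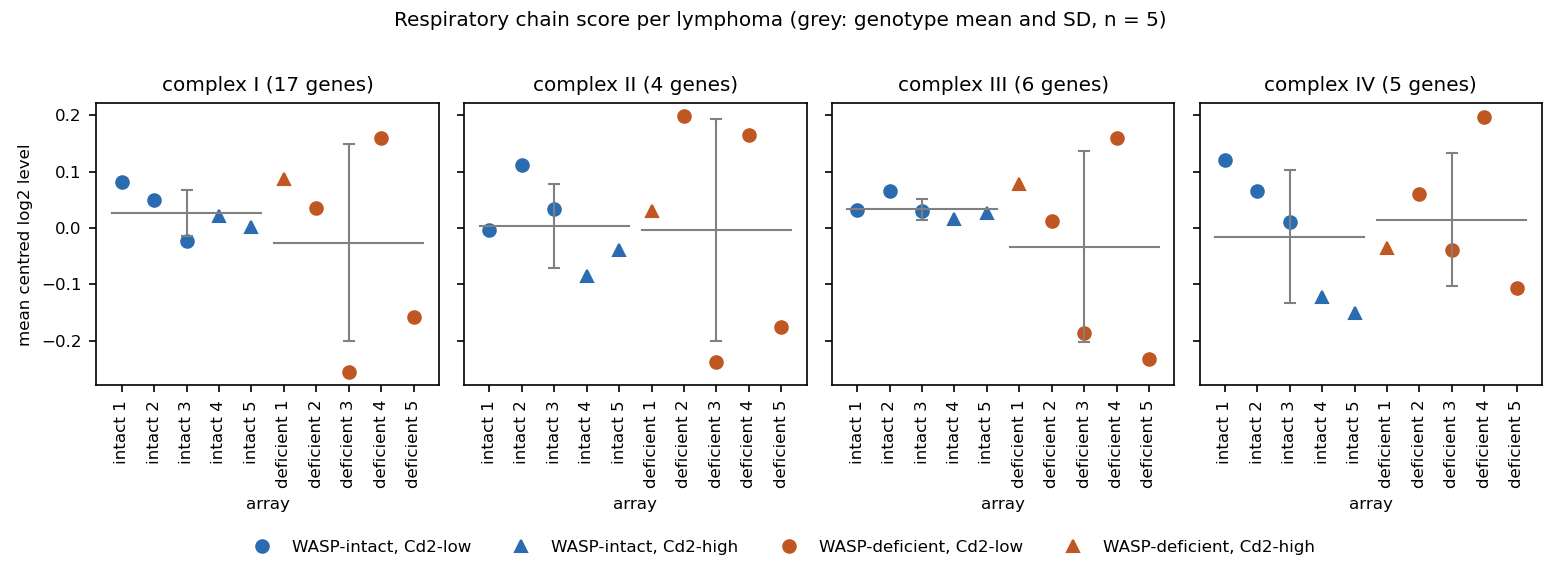
Score of each respiratory chain complex on every array, in log2 units relative to the 10-array mean of each gene, by genotype, with the 3 Cd2-high arrays marked. For complexes I to III the lowest points are WASP-deficient 3 and 5, and for complex IV they are WASP-intact 4 and 5.

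The mean complex scores of the genotypes differed by less than the spread among the WASP-deficient tumours, which were the more scattered in complexes I to III. In complexes I and III the difference was larger than the SD of the WASP-intact tumours. The complex I score was 0.03 ± 0.04 with WASP and -0.03 ± 0.17 without (SD, n = 5 each). That of complex III was 0.03 ± 0.02 and -0.03 ± 0.17, and that of complex II 0.00 ± 0.07 and -0.00 ± 0.20. Complex IV had equal spreads, -0.02 ± 0.12 and 0.02 ± 0.12. The difference in scatter was not tested.

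No respiratory chain gene passed the threshold between the genotypes. In limma, 0 of the 33 genes had an adjusted p under 0.05, against 0.00789% of the tested genes, and 0 had an unadjusted p under 0.05, against 2.89%. No gene had all arrays of one genotype above all of the other, which 0.568% of the tested genes did. The smallest unadjusted p among the 33 was 0.145 (limma) and all 33 adjusted p-values were 0.999. Differences ran from -0.24 to 0.13 with a median of -0.05, against -0.0038 for all tested genes, and 23 were below 0 and 10 above. With 5 mice per group, the 95% interval of the difference lay within 0.5 on either side of 0 for 32 of the 33 genes. It lay within 0.25 for 9. Every interval included 0, and differences beyond these bounds lay outside the intervals of those genes. The exception to the bound of 0.5 was Uqcrb, whose interval reached -0.59. In a piece of tumour, fewer cells of a type and less RNA per cell cannot be told apart.

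**Figure D2:**
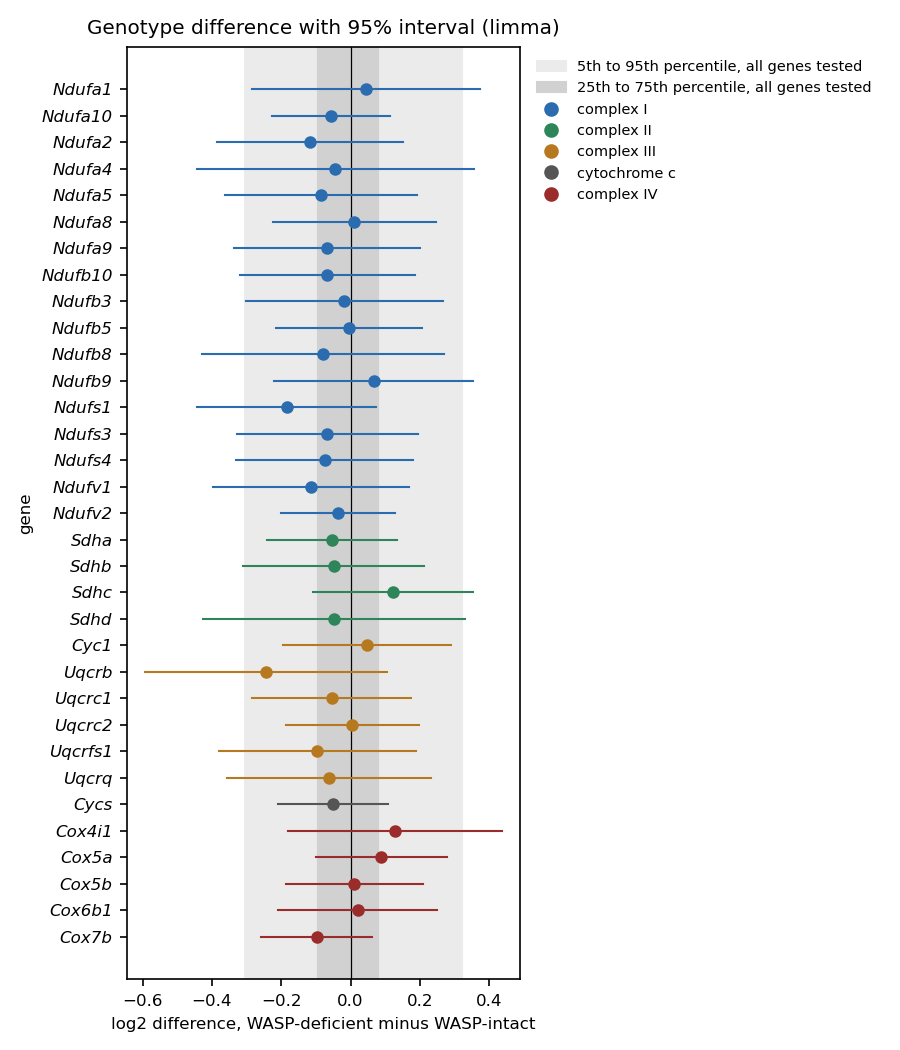
Difference in log2 level, WASP-deficient minus WASP-intact, for each of the 33 genes with its 95% limma interval, ordered by complex. Every interval includes 0, and the lowest estimates are Uqcrb (-0.24) and Ndufs1 (-0.18).

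Complex I gave a median difference of -0.07, with 14 genes below 0 and 3 above. Ndufv1, the core subunit that binds NADH and flavin, ran from 10.39 to 10.64 with WASP and 10.21 to 10.84 without, a difference of -0.11 (SE 0.13). Ndufv2, its iron-sulfur partner, ran from 11.75 to 11.92 and 11.75 to 11.99, a difference of -0.04 (SE 0.07). Ndufs3, a core subunit of the peripheral arm, ran from 10.48 to 10.67 and 10.23 to 10.80, a difference of -0.07 (SE 0.12). In all 3 the WASP-deficient range was the wider and covered most or all of the other. Ndufs1, the iron-sulfur protein with the largest number of clusters, was at 9.33, 9.36, 9.58, 9.64 and 9.74 with WASP and 9.46, 9.42, 9.06, 9.53 and 9.26 without. The WASP-deficient arrays reached both below and into the WASP-intact range, and the difference of -0.18 (SE 0.12, interval -0.44 to 0.07) did not pass. Ndufs4, an accessory subunit by the NADH-oxidising module, was at 11.74 to 11.80 on the WASP-intact arrays and at 11.72, 11.65, 11.37, 12.08 and 11.68 on the WASP-deficient ones. A tight group thus lay inside a loose one, with WASP-deficient 3 lowest and WASP-deficient 4 highest, and the difference was -0.07. Among the other accessory subunits, which frame and stabilise the core, Ndufa9 differed by -0.07, Ndufa10 by -0.06, Ndufa2 by -0.12, Ndufb8 by -0.08 and Ndufa5 by -0.09. Ndufb9 (0.07), Ndufa1 (0.04) and Ndufa8 (0.01) were the genes above 0. The remaining accessory genes were Ndufa4 at -0.04, Ndufb3 at -0.02, Ndufb5 at -0.00 and Ndufb10 at -0.07. Without WASP-deficient 3 the complex I median was 0.00088, so its sign rested on that array. With all arrays but without Ndufa4 the median was -0.07 as well.

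Complex II, which is also the succinate dehydrogenase of the citric acid cycle, gave a median of -0.05, which was 0.02 without WASP-deficient 3 and 0.05 without WASP-deficient 5. Sdha, the flavoprotein that oxidises succinate, ran from 11.33 to 11.55 with WASP and 11.17 to 11.54 without, a difference of -0.05 (SE 0.08). Sdhb, its iron-sulfur partner, ran from 10.07 to 10.34 and 9.85 to 10.42, a difference of -0.05 (SE 0.12). Sdhc, a membrane anchor, was at 10.65, 10.75, 10.57, 10.52 and 10.40 with WASP and 10.50, 10.88, 10.52, 10.85 and 10.75 without. It was the 1 gene of the complex above 0, at 0.12 (SE 0.10), with overlapping groups. Sdhd, the other anchor, was at 10.30, 10.49, 10.52, 10.16 and 10.40 with WASP and 10.62, 10.62, 9.96, 10.57 and 9.87 without. Its WASP-deficient arrays lay on both sides of the WASP-intact range, 3 above and 2 below, and the difference was -0.05 (SE 0.17).

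Complex III gave a median of -0.06. Uqcrb, a small subunit next to the ubiquinone site, was at 11.26, 11.51, 11.75, 11.83 and 11.92 with WASP and 11.68, 11.26, 11.27, 11.70 and 11.13 without. The difference of -0.24 (SE 0.16, interval -0.59 to 0.11) was the lowest of the 33 genes and did not pass, and the groups overlapped. The other Uqcrb probe sets gave -0.14 and -0.23. The catalytic subunits differed by less: 0.05 for Cyc1, which encodes cytochrome c1, and -0.10 for Uqcrfs1, the Rieske iron-sulfur protein. Uqcrfs1 was at 8.69 to 8.83 on the WASP-intact arrays and at 8.87, 8.74, 8.29, 8.99 and 8.47 on the WASP-deficient ones, which again lay on both sides. The core proteins Uqcrc1 and Uqcrc2 differed by -0.05 and 0.01, and the small subunit Uqcrq by -0.06. The median of the complex was 0.0011 without WASP-deficient 3 and 0.00033 without WASP-deficient 5.

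Complex IV was the 1 complex with a median above 0, at 0.02, and 4 of its 5 measured genes were above 0. Cox4i1, the regulatory subunit that binds ATP, was at 10.62, 10.56, 10.43, 10.19 and 10.12 with WASP and 10.30, 10.49, 10.73, 10.77 and 10.27 without. Its difference of 0.13 (SE 0.14, interval -0.18 to 0.44) was the highest of the 33 and did not pass. Cox5a, a matrix-side subunit, ran from 9.80 to 10.02 with WASP and 9.82 to 10.16 without, a difference of 0.09. Cox5b, the zinc-binding subunit, ran from 11.79 to 12.04 and 11.80 to 12.10, a difference of 0.01. Cox6b1, on the cytochrome c side, ran from 11.46 to 11.85 and 11.52 to 11.92, a difference of 0.02. Cox7b, at 12.33 to 12.45 with WASP and 12.12 to 12.37 without, was the 1 gene below 0, at -0.10 (SE 0.07). The median was 0.06 without WASP-deficient 3, and below 0 without WASP-intact 4 (-0.0089), WASP-intact 5 (-0.012) or WASP-deficient 4 (-0.03). With Ndufa4 counted here it was 0.016. Cycs differed by -0.05 (SE 0.07, interval -0.21 to 0.11), one of the narrowest intervals of the 33.

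Since 2 WASP-intact arrays but 1 WASP-deficient array were Cd2-high, the genotypes were also compared among the Cd2-low arrays, 3 with WASP and 4 without. The 4 included WASP-deficient 3 and 5, whose scores over the 33 genes were the lowest of the 10 arrays (-0.20 and -0.17). Among the Cd2-low arrays 28 of the 33 genes were below 0, against 7223 of all 12670 tested. The median was -0.08, against -0.02 for all tested genes, and limma called 0 of the 33 and 2 of all. The complex IV median was -0.06 among these arrays, so its sign differed from that over all 10. Uqcrb differed by -0.16 and Ndufs1 by -0.11 there. Among the Cd2-high arrays, 2 against 1 with no test, most of the 33 genes were above 0, the reverse of the Cd2-low arrays. Sdhd (0.34), Uqcrq (0.24) and Ndufb9 (0.21) were among those above, while Uqcrb (-0.19) and Ndufs1 (-0.23) were below.

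**Figure D3:**
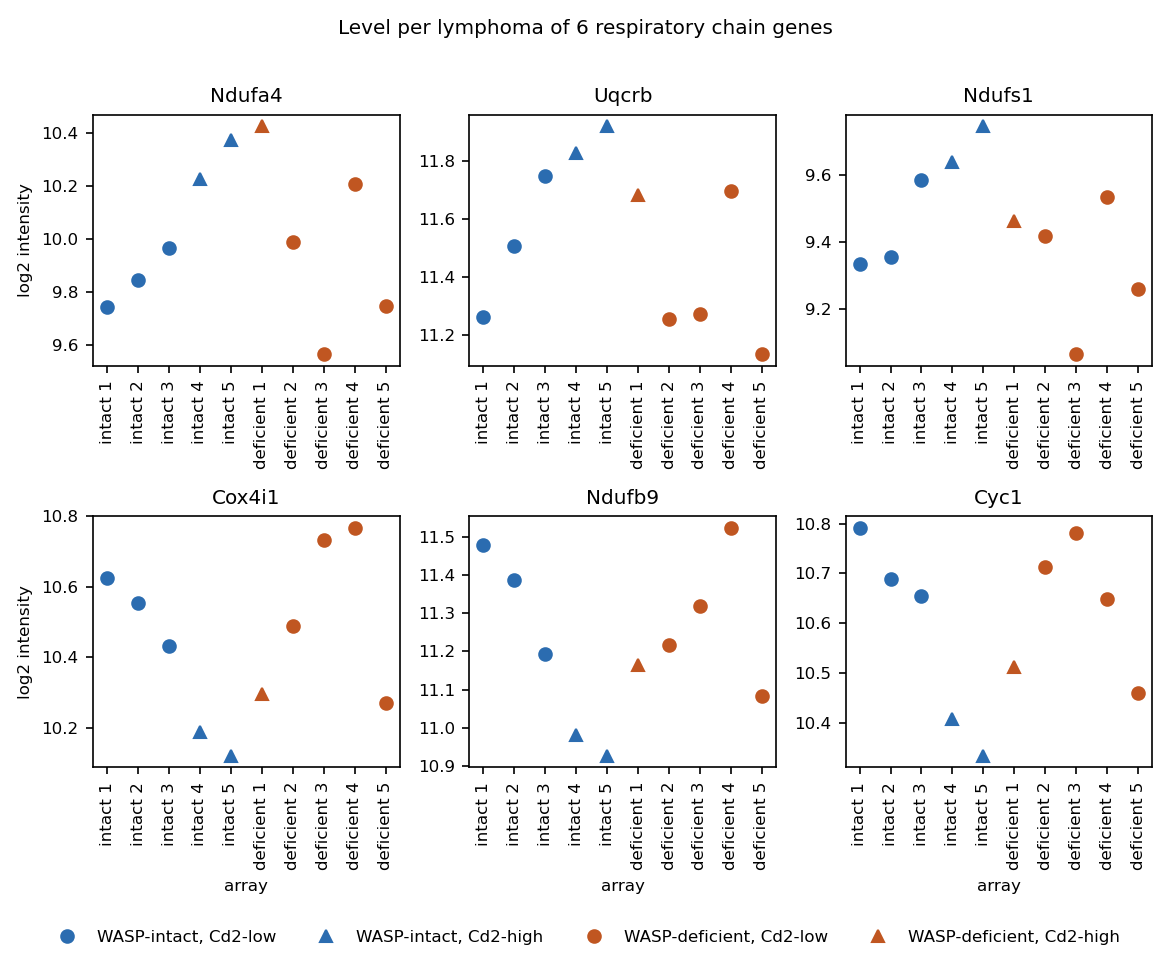
Log2 level of Ndufa4, Uqcrb, Ndufs1, Cox4i1, Ndufb9 and Cyc1 on every array, by genotype, with Cd2-high arrays marked. The genotypes overlap in every panel, while the Cd2-high arrays are at the top for Ndufa4 (10.23 to 10.43).

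The Cd2-high and Cd2-low arrays were compared as a description, with no test, since the array values define these sets and the labels do not. Respiratory chain genes differed less between these sets than genes in general. In 1 of the 33 genes, Ndufa4, every Cd2-high array was above every Cd2-low array, against 14.4% of the tested genes. In 0 of the 33 was every Cd2-high array below, against 16.1%. In 0 the means differed by 0.5 or more, against 21%. The median absolute difference was 0.13 over the 33 genes and 0.20 over all tested genes. When 1 array was left out in turn, 1 to 6 of the 33 did not overlap; the 6, without WASP-deficient 1, were 18.2% of the 33 against 38.6% of the tested genes.

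**Figure D4:**
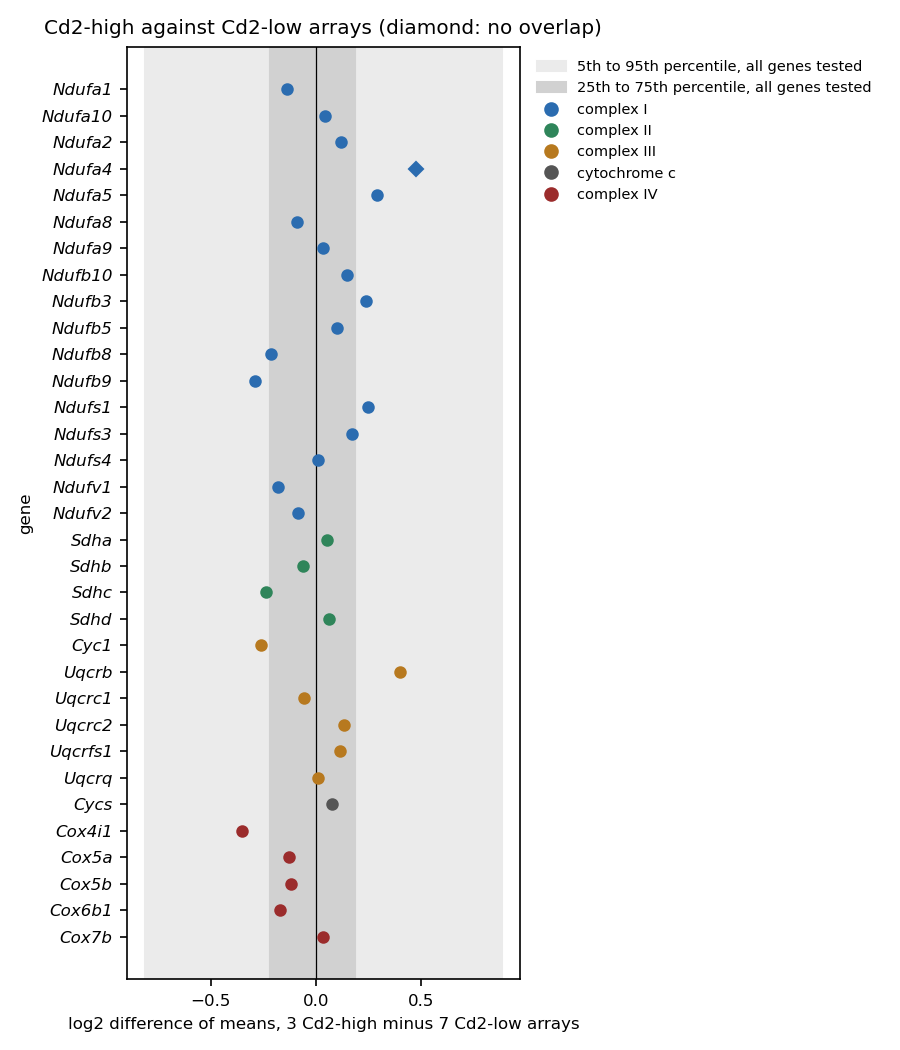
Difference in mean log2 level, Cd2-high (3 arrays) minus Cd2-low (7 arrays), for each of the 33 genes by complex, with no test; grey bands give the spread of all tested genes and the diamond marks sets that do not overlap. Values run from -0.35 for Cox4i1 to 0.48 for Ndufa4, and 4 of the 5 complex IV genes are below 0.

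Within complex I the sets differed in both directions, 11 genes above 0 and 6 below, with a median of 0.04, which was -0.03 within the WASP-intact arrays and 0.14 within the WASP-deficient ones. Ndufa4 was at 10.23, 10.37 and 10.43 on the Cd2-high arrays and at 9.57 to 10.21 on the others, a difference of 0.48. The sets met closely, as the highest Cd2-low array, WASP-deficient 4, was at 10.21. After each array was centred on its median the Ndufa4 sets overlapped, and Sdhc was then the 1 gene whose sets did not. Ndufa5 (0.29), Ndufs1 (0.25), Ndufb3 (0.24), Ndufs3 (0.17) and Ndufb10 (0.15) were also higher on average in the Cd2-high arrays. Ndufb9 was at 10.98, 10.93 and 11.16 on the Cd2-high arrays and 11.08 to 11.52 on the others, a difference of -0.29. Ndufb8 (-0.21), Ndufv1 (-0.18), Ndufa1 (-0.14), Ndufa8 (-0.09) and Ndufv2 (-0.08) were lower on average too. Ndufa2 (0.12), Ndufb5 (0.10), Ndufa10 (0.04), Ndufa9 (0.03) and Ndufs4 (0.01) complete the 17, so subunits of one complex did not share a direction. Without Ndufa4 the complex I median was 0.04 as well, and 0 of the remaining 16 genes separated the sets.

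The same division ran through complexes II and III, with medians of -0.0023 and 0.06. Within the WASP-intact arrays alone these were -0.13 and -0.08, and within the WASP-deficient ones 0.03 and 0.17. Sdhc differed by -0.24, and the other complex II genes by -0.06 to 0.06. Uqcrb was at 11.83, 11.92 and 11.68 on the Cd2-high arrays and 11.13 to 11.75 on the others, a difference of 0.40, and its other probe sets gave 0.30 and 0.42. Cyc1 was at 10.41, 10.33 and 10.51 against 10.46 to 10.79, a difference of -0.26. Uqcrc2 (0.13), Uqcrfs1 (0.12), Uqcrq (0.01) and Uqcrc1 (-0.06) lay between them.

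Complex IV had a median of -0.13 between the Cd2 sets, against -0.02 for all tested genes. Cox4i1 was at 10.19, 10.12 and 10.30 on the Cd2-high arrays and 10.27 to 10.77 on the others, a difference of -0.35. Cox6b1 differed by -0.17, Cox5a by -0.13 and Cox5b by -0.12, with Cox7b at 0.03. Without Ndufa4, no complex IV gene separated the sets entirely, and the median stayed below 0 in all 20 alternative settings run for it (-0.19 to -0.06). Cycs differed by 0.08. With Ndufa4 counted in complex IV, the median was -0.12 and 1 of its 6 measured genes, Ndufa4 at 0.48, separated the sets, in the direction opposite to the median.

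Other cell types also differed between the Cd2 sets. All 7 tested fibroblast genes of 8 listed had a higher mean in the Cd2-high arrays (median 1.06), with scores of 0.92, 0.95 and 0.32 there and -0.70 to 0.00 on the others. The score of 10 tested muscle genes of 18 listed was 1.62 on WASP-intact 4 and -0.29 to 0.10 elsewhere. The adipocyte score, over 8 tested genes of 10, was 0.65 and 0.47 on WASP-intact 4 and 5, -0.10 on WASP-deficient 1 and -0.48 to 0.07 on the Cd2-low arrays. Between genotypes limma called 0 genes of these lists. All 7 tested epithelial genes of 8 had a higher mean without WASP (median 0.85), as had 10 of 11 tested macrophage genes (median 0.24). All 7 fibroblast genes (median -0.57), all 10 muscle genes (median -0.39) and 7 of 8 adipocyte genes (median -0.35) had a lower mean without WASP. For each of these lists the highest scores were on WASP-intact 4 and 5, both Cd2-high. The part of those arrays in the genotype medians was not tested. In limma an unadjusted p under 0.05 was reached by 5 of 7 epithelial, 4 of 11 macrophage and 5 of 8 adipocyte genes. It was reached by 1 of 7 fibroblast genes, 0 of 10 muscle genes and 2.89% of all tested genes. The lists were chosen with earlier results of these data known. The part of these cell types in the respiratory chain values was not tested. Endothelial genes had a median genotype difference of -0.05, brown fat genes -0.28, and the few tested B cell and erythroid genes 0.16 and 0.03; no listed neutrophil gene was tested.

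Subunits of the chain outside the 34 genes showed the same lack of calls by genotype. Of 20 other complex I subunits 18 were tested, with 0 called and a median of -0.0065, and all 8 other subunits of complexes III and IV were tested, with 0 called and a median of -0.03. Between the Cd2 sets, 13 of the 18 complex I subunits had a lower mean in the Cd2-high arrays (median -0.10), as had 7 of the 8 subunits of complexes III and IV (median -0.12). Uqcr11, a small complex III subunit, was at 9.57 to 9.70 on the Cd2-high arrays and 9.66 to 10.48 on the others, a difference of -0.49. Ndufv3 differed by -0.33, Ndufa7 by -0.23 and Cox6a1 by -0.26. ATP synthase had 16 tested genes, with 0 called and a median of 0.0018 by genotype. Atpif1, the inhibitor of the enzyme running in reverse, was at 11.65 to 11.80 in the Cd2-high arrays and 11.80 to 12.28 in the others without overlap, while Atp5j, a stalk subunit, was at 11.88 to 11.97 against 11.33 to 11.74. They were the 2 of the 16 genes that separated the sets, against 30.5% of the tested genes.

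Assembly factors build the complexes and are not part of them. Of 39 tested genes of 43, 0 were called between genotypes (median -0.03), the smallest unadjusted p being 0.052 in limma for Uqcc1, a complex III factor (-0.19), followed by Lrpprc, which stabilises mitochondrial mRNAs (-0.22). Between the Cd2 sets 5 of the 39 were above without overlap and 5 below, against 14.4% and 16.1% of the tested genes. Uqcc2, which is needed to make cytochrome b of complex III, was at 10.27, 10.27 and 10.51 on the Cd2-high arrays and 10.92 to 11.21 on the others, a difference of -0.67. Lyrm7, an assembly factor for the Rieske protein of complex III, was at 7.15, 7.23 and 7.41 against 6.31 to 6.86, a difference of 0.63. Surf1, a complex IV factor, was at 9.11, 9.20 and 9.13 against 8.31 to 8.85, a difference of 0.49. Uqcc2 and Lyrm7, both complex III factors and the 2 of largest Cd2 difference in the list, thus stood on opposite sides. Of the 6 complex III subunits described above 0 separated the sets, though their mean differences also ran both ways.

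Regulators of mitochondrial biogenesis had 17 tested genes of 20, with 0 called by genotype, 14 below 0 and a median of -0.06. Nrf1, whose core motif is shown above, differed by -0.04 between genotypes and by 0.07 between the Cd2 sets. Tfam, which packages mitochondrial DNA and acts in its transcription, differed by -0.05 and 0.15. Esrra, an orphan nuclear receptor, differed by -0.06 and -0.14. Gabpa, the DNA-binding chain of GABP, was at 9.83 to 9.96 on the Cd2-high arrays and 9.40 to 9.77 on the others. Mterf3 (0.57) and Ssbp1 (0.51), which act on mitochondrial DNA, were above without overlap as well, and Twnk (-0.34), the replicative helicase, was below. Of the 17 regulators 3 were above without overlap and 1 below, against 14.4% and 16.1% of the tested genes. Ppargc1a, the coactivator that drives mitochondrial biogenesis in muscle and brown fat, was under the filter on all arrays (4.69 to 5.66).

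The citric acid cycle, which supplies NADH and succinate to the chain, had 17 tested genes of 18, with 0 called and a median of -0.0058 by genotype. Cs, citrate synthase, was at 11.11 to 11.13 on the Cd2-high arrays and 11.17 to 11.44 on the others, a difference of -0.22. Of the 17 genes 1 was above without overlap and 3 were below, against 14.4% and 16.1% of the tested genes. Pdha1, of pyruvate dehydrogenase, had the smallest unadjusted p of the list (0.121, limma) at -0.21. Of the genes of mitochondrial DNA 2 were tested. ND3 of complex I was at 12.88 to 13.11 and COX2 of complex IV at 12.64 to 13.06 over the 10 arrays. They differed by -0.03 and 0.0038 between genotypes and by -0.03 and -0.13 between the Cd2 sets.

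Among tissue-specific isoforms of complex IV subunits, 3 that are typical of muscle were highest on the same array. Cox8b, an isoform of heart, skeletal muscle and brown fat, was at 6.36, 6.43, 6.92, 9.93 and 7.58 with WASP and 6.48, 6.19, 6.50, 5.83 and 6.11 without. The high array was WASP-intact 4. Cox6a2, the muscle isoform of Cox6a, was at 9.05 there and at 6.89 to 7.57 on the other 9 arrays, and Cox7a1, the muscle isoform of Cox7a, at 8.73 against 7.45 to 8.42. On the same array Ckm, muscle creatine kinase, was at 10.95 against 7.08 to 7.28, and Acta1, skeletal actin, at 11.59 against 6.92 to 7.19. Ucp1, which defines brown fat, was under the filter on all arrays (5.07 to 5.99). Of 7 tested isoforms of 9 listed, limma called 0 between genotypes, and Cox8b differed by -1.22 with an unadjusted p of 0.066, or by -0.60 without WASP-intact 4. Cox4i2 (6.96 to 7.08), Cox8c (6.52 to 6.95) and Ndufa4l2 (6.13 to 6.82) had their highest value on other arrays.

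Cox6b2, the testis isoform of Cox6b, followed the Cd2 sets. It was at 8.60, 8.47 and 8.68 on the Cd2-high arrays and 9.28 to 10.19 on the Cd2-low ones, a difference of -1.21. All Cd2-high arrays were below all others, in each genotype. Of the 7 tested isoforms 1, Cox6b2, separated the sets, against 30.5% of the tested genes. Its ubiquitous counterpart Cox6b1 differed by -0.17 between the sets. The genotype difference of Cox6b2 was 0.51 and did not pass.

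**Figure D5:**
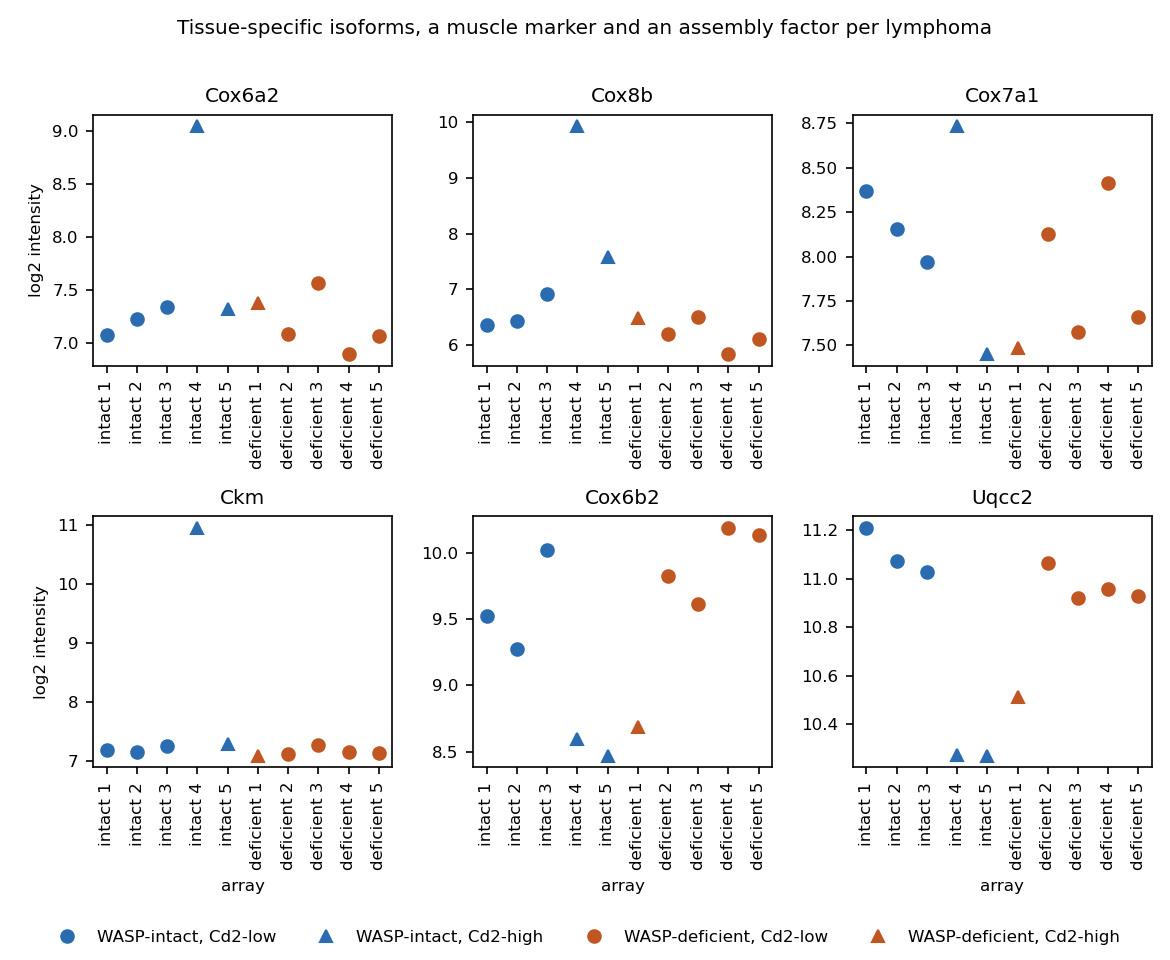
Log2 level of Cox6a2, Cox8b, Cox7a1, Ckm, Cox6b2 and Uqcc2 on every array, by genotype, with Cd2-high arrays marked. WASP-intact 4 stands above the others for Cox6a2 (9.05), Cox8b (9.93) and Ckm (10.95), and all 3 Cd2-high arrays are lowest for Cox6b2 and Uqcc2.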

How the data were processed

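Total RNA of 10 lymphomas, 5 per genotype, was hybridised to 1 array each, and group and replicate come from the titles. The labels call the replicates biological. The authors deposited 1 intensity per probe set, made with RMA according to the submitters' processing notes. The version of the software or annotation was not given in the sources used here. Intensities ran from 3.309 to 15587.9, a linear scale, so log2 was taken. RMA is meant to make the arrays' distributions alike, and array medians lay between 116.7 and 122.7. The upper quartile was 402.7 on WASP-deficient 3 and 433.6 to 451.2 on the other arrays, so the upper range was not fully alike. The number of arrays limits the precision. No column was left unused (0).

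Probe sets were named through GEO's platform annotation: 22961 of 34760 were listed, 21640 of them under 1 symbol and 1321 under several, which leaves 11799 not named here. Gene IDs of 21553 matched RefSeq (GRCm38.p6), with 0 symbols changed. Probe sets with a mean under the 40th percentile (log2 6.35, intensity 81.7) were left out, and the single-symbol probe set of highest mean was kept for each of 12670 genes. Genotypes were compared with limma 3.58.1 (lmFit, eBayes, no covariate) in R 4.3.3, Benjamini-Hochberg adjusted over all genes, threshold 0.05, checked on simulated data. Python 3.11.15 with matplotlib 3.10.9 drew the figures. Arrays with a Cd2 log2 level of 9 or more were called Cd2-high. Lists are described by counts and medians, with no set test. Replicate numbers were not used to pair the arrays.

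The respiratory chain genes and the lists were chosen with earlier results of these data known. The rule for genes to name took all 34, Was, Cd2, Xist, the 2 genes of smallest p in each list, the 2 of largest Cd2 difference in each mitochondrial list, and a set of regulators and markers. Those outside the respiratory chain that no sentence needs are given only within their list's counts and medians. Surf1, Twnk, Cs, Cox6a2, Cox7a1, Cox4i2, Cox8c, Ndufa4l2, Ckm, Acta1, Cd3g, Thy1, Ptprc, Kdm5d and Elovl3 lie outside this rule and were named after their values were seen, and the promoter stretches were chosen after the motif search. Alternatives were the filter, array centring, a further quantile normalization, other probe set rules, an offset, variance models, covariates, subsets of arrays, the replicate block and each array left out.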

Additional observations from a re-analysis of the deposited data

Results flagged for a closer look

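Of 74 groups of 5 arrays examined for the respiratory chain genes and complex scores, 1 held an array that stood apart from the other 4 by Dixon's criterion, where chance gives about 5%. It was Ndufa9, a complex I subunit, at 10.88 on WASP-intact 2, against 10.70 to 10.75 on the other WASP-intact arrays; the gap was 0.73 of the group's range, above the critical value of 0.71. The WASP-deficient arrays ran from 10.37 to 11.01 for this gene.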

How the results depend on the processing

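No respiratory chain gene passed the threshold in any of 24 alternatives; the lowest adjusted p in limma was 0.659 (Uqcrb without WASP-deficient 1, -0.31), the range being 0.659 to 1, and the largest difference -0.35 (Uqcrb with Xist as a covariate). Of 791 values of these genes 790 stayed within 1 SD of the reported one, the exception being Ndufb10 with Xist as a covariate (0.15). Much of this count was fixed in advance, so it does not show that the differences were stable. In groups of this size, leaving out 1 array cannot shift a difference by 1 SD. Dropping the filter, trend and robust eBayes, unequal variances and the replicate block did not change the differences at all. Of the 791 values 71 changed sign, in 21 genes. Genes called over the whole table, 1 as reported, were 2 with unequal variances, 0 with Xist as a covariate (187 unadjusted) where Was lost its call (-1.06, adjusted p 0.376 in limma), 2 in Cd2-low arrays alone and 1 to 4 with an array left out, 4 without WASP-intact 3 and 2 without WASP-deficient 1. Deviations of same-numbered arrays correlated at -0.71, 0.37, 0.29, -0.41 and -0.37 over genes. Numbers 1, 4 and 5 each join a Cd2-high and a Cd2-low array, so these values cannot show whether the arrays were paired. The fit with the replicate block called 0 genes (248 unadjusted), Was losing its call there too (-1.14, adjusted p 0.136 in limma). The cause of these differences was not tested. Genotype medians ran from -0.09 to 0.00088 in complex I, -0.09 to 0.05 in complex II, -0.14 to 0.0011 in complex III and -0.06 to 0.07 in complex IV. Between Cd2 sets, the median in complex I was -0.03 with WASP-intact and 0.14 with WASP-deficient arrays alone (as reported 0.04). It was -0.13 in complex II with WASP-intact arrays alone (as reported -0.0023), and in complex III -0.079 with WASP-intact and 0.17 with WASP-deficient arrays alone (as reported 0.06). Genes whose Cd2 sets did not overlap, 1 as reported, numbered 2 after a further quantile normalization and 1 to 6 with an array left out; these counts and the placement of Ndufa4 in complex IV were alternatives chosen after seeing the data. Dim probe sets, such as Ppargc1a, limit what can be said of low genes.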

Other observations

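Elovl3, a fatty acid elongase of brown fat and skin, was listed with brown fat. It differed by -3.32 between the Cd2-high and Cd2-low arrays, with every Cd2-high array below every other, as in 16.1% of the tested genes. Cox8b, of the same list, differed by 1.67. An alternative chosen after seeing the data left out WASP-intact 4. The difference of Cox8b was then 0.70, that of Cox6a2 0.17 (0.74 with that array) and that of Elovl3 -2.75. For Cox7a1 it was -0.57, against -0.15 with that array. In the fit with Xist as a covariate the genotype difference of Cox6b2 was -0.22, against 0.51 without it, and neither passed in limma.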
